A study of Mus musculus with 4 samples.

Results

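The skeletal muscle lineage genes described here are 34 genes of the 19751 measured in mouse embryonic fibroblasts (MEFs), primary mesenchymal cells grown out of embryos. They comprise the myogenic transcription factors and their upstream factors, genes of myoblast adhesion and fusion, genes of the nerve-muscle synapse, and genes of the contractile apparatus. They were picked by gene symbol, and where a symbol had several probe sets the brightest was to be used; each of the 34 had 1 probe set. The study compared wild-type (WT) cells with cells lacking podoplanin (genotype Pdpn-/-, here Pdpn KO), a transmembrane glycoprotein that binds the platelet receptor CLEC-2. There were 2 arrays for each genotype, called biological replicates in the labels, and the strain is given as C57BL6/J throughout. Embryos of both genotypes were taken at embryonic day 9.5 to 13.5, their cells were grown for 7 to 10 days in alpha-MEM with 10% fetal calf serum, and cells carrying CD31 (endothelium) or CD45 (blood) were removed with magnetic beads. The stage of each embryo, the number of embryos or litters behind a culture and the kind of Pdpn mutation are not stated in the labels. Cultures from whole embryos can hold cells of several lineages, and in such bulk RNA fewer cells of a type and less RNA per cell cannot be told apart.

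Skeletal muscle forms from somite cells that express the paired-box factors Pax3 and Pax7. Together with Six4, Eya1 and their relatives, these factors switch on the myogenic basic helix-loop-helix (bHLH) factors Myf5, Myod1, Myf6 and Myog. The bHLH factors bind DNA at the E box, with the letters CANNTG, and act with Mef2 proteins on genes of the sarcomere and of the nerve-muscle synapse. Myoblasts then leave the cell cycle, adhere and fuse into myotubes. MEFs have a place in the history of this pathway: forced expression of Myod1 turns fibroblasts into muscle cells.

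Values are RMA intensities, a measure of probe set brightness on a linear scale after background correction and normalisation across arrays. The median over all 24679 probe sets was 283.5 and 290.1 in WT replicates 1 and 2. It was 290.3 and 290.2 in Pdpn KO replicates 1 and 2. Differences between genotypes were tested on the log2 scale with limma over all 19751 genes. The ± after a log2 difference is its standard error in that fit, with n = 2 arrays per genotype. The fit draws the variance of each gene towards a value shared by all genes, so the ± is not the spread of the gene's own arrays alone. Pdpn itself read 4485.6 and 3105.9 in WT against 178.7 and 201.0 in Pdpn KO, a log2 difference of -4.30 ± 0.19 (limma adjusted p = 0.00501), the direction that the genotype labels give. Fibroblast genes were bright, with 12 of 14 markers above the 75th percentile of genes on average, led by the intermediate filament gene Vim at 99.99 to 99.995 and the matrix gene Fn1 at 99.91 to 99.97. The proteoglycan gene Lum was the dimmest of them, at percentiles 9.46 to 25.5, with a log2 difference of 0.67 ± 0.30. S100a4, which encodes a calcium-binding protein, had the only unadjusted p under 0.05 of the 14, against 2.01% of all genes. Its log2 difference was 0.29 ± 0.11 (limma unadjusted p = 0.0348, adjusted p = 0.99998). The labels give the sex of all samples as female, and 3 arrays went against that. Xist, transcribed from the inactive X chromosome, read 48.6 and 57.4 in WT, 48.8 in Pdpn KO replicate 1 and 1831 in Pdpn KO replicate 2. The Y-linked Eif2s3y read 1534 and 1474 in WT, 1673 in Pdpn KO replicate 1 and 35.1 in Pdpn KO replicate 2. Uty, also Y-linked, read 760.1 and 757.5 in WT, 799.4 in Pdpn KO replicate 1 and 36.0 in its replicate 2. Pdpn KO replicate 2 therefore stood apart from the other 3 arrays in these genes, and fits without it are given below.

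To place each gene, its value on an array was expressed as a percentile of all 19751 genes on that array. A percentile compares probe sets that differ in the number and affinity of their probes and is not an amount of transcript per length, so it ranks brightness only. RMA leaves no detection calls. As landmarks, Pdpn in the Pdpn KO arrays lay at percentiles 37.7 and 39.2, and Cd3e, a T cell gene, at 37.2 to 40.1 in these CD45-depleted cultures. Markers of depleted cells varied widely: the 13 of endothelium and blood had a median percentile of 29.2, with Ptprc, which encodes CD45, at 16.0 to 20.0 and Cd68 at 54.4 to 64.5. The median percentile of the muscle lineage genes was 39.9 and 40.6 for WT against 39.4 and 39.5 for Pdpn KO. That was about the level of Pdpn in Pdpn KO and of Cd3e, and above the median of the 13 markers. Of the 34 genes, 24 were below the 50th percentile on every array. The mean percentile exceeded 50 for 7 genes, which were Acta1, Tnnt2, Six4, Actc1, Eya1, Myl4 and Mef2c in descending order, and it exceeded 75 for Acta1 only. Another 21 genes lay between 25 and 50 and 6 below 25. A gene's rank moved little between arrays: the median span from the lowest to the highest array was 2.83 percentile points, and it was under 5 points for 28 genes.

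**Figure D1:**
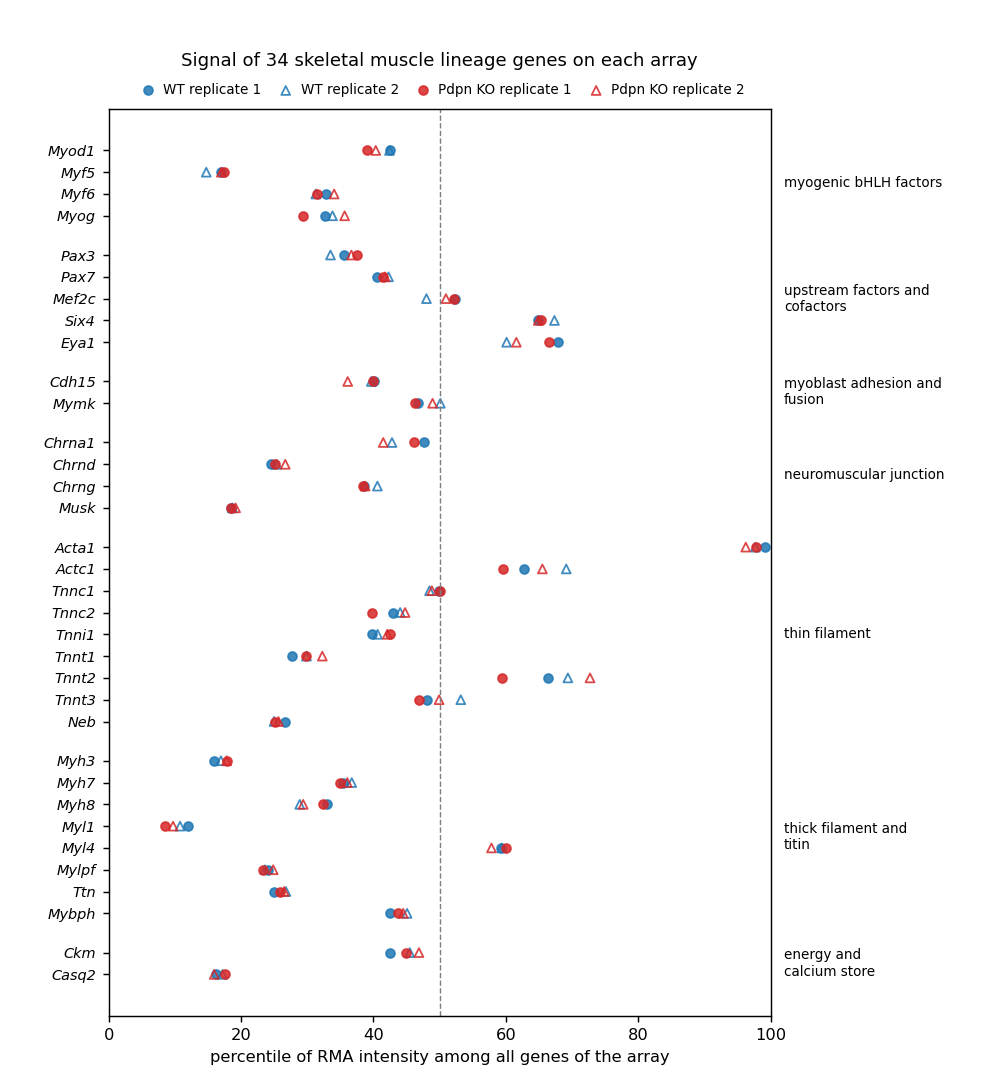
Percentile of each of the 34 muscle lineage genes among all 19751 genes on each of the 4 arrays (x axis, percentile of brightness; y axis, genes ordered by role; 1 point per array). Acta1 stands alone at percentiles 96.2 to 99.1, 6 other genes average above the 50th, and the points of the WT and Pdpn KO arrays lie close together for most genes.

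No difference between the genotypes was detected in any of the 34 genes. At an adjusted p under 0.05 limma called 0 of them, against 2 of all genes (0.0101%), which were Pdpn and Decr1, both lower in Pdpn KO. At an unadjusted p under 0.05 it also called 0 of the 34, against 397 of all genes (2.01%). The adjusted p was 0.99998 for each of the 34, and the smallest unadjusted p was 0.0721, for Myl1. Log2 differences ran from -0.41 for Acta1 to 0.13 for Ckm, with 15 genes above 0 and 19 below. Their median was -0.01 against 0.0043 over all genes. Both Pdpn KO arrays lay above both WT arrays in 3 genes, or 8.82%, against 14.6% of all genes, and below in 2 genes, or 5.88%, against 9.74% of all genes. Both shares were below those of the whole table, but they rest on 3 and 2 genes, and the gap was not tested. Without Pdpn KO replicate 2, the array with the female pattern, limma called 0 of the 34 at the adjusted threshold, against 50 of all genes (0.253%). At an unadjusted p under 0.05 that fit called 2 of the 34 (5.88%), Tnnt2 and Myl1, both lower in Pdpn KO, against 720 of all genes (3.65%). The median log2 difference of the 34 was then -0.05.

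The size of difference that the limma fit leaves room for can be read from its 95% confidence intervals. That fit draws the variance of each gene towards a value shared by all genes. For genes with a wide spread between arrays, such as Tnnt2, Eya1 and Acta1, intervals from the gene alone would be wider. The limma intervals lay within a 2-fold change in either direction for 34 of the 34 genes and within 1.5-fold for 29. The 5 genes whose interval reached 1.5-fold were Eya1, Acta1, Actc1, Tnnt2 and Myl1. The most extreme bounds were 1.96-fold lower in Pdpn KO, for Acta1, and 1.55-fold higher, for Eya1. The standard errors, which the shared variance draws together, ran from 0.11 to 0.25 with a median of 0.129, against 0.127 over all genes. RMA compresses low values towards a floor, so these fold bounds hold for the intensities, and changes in the transcripts of dim genes can be larger.

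**Figure D2:**
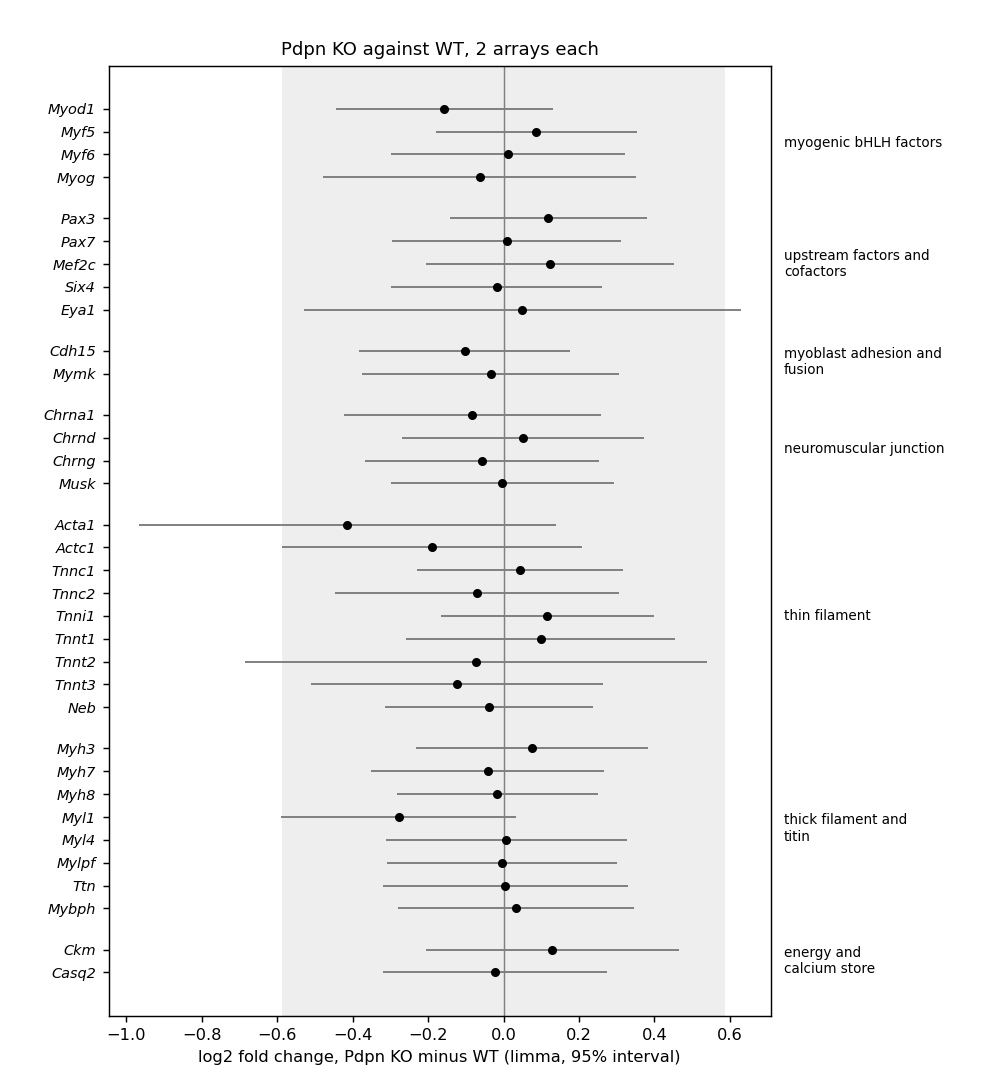
Log2 difference in RMA intensity, Pdpn KO minus WT, for each of the 34 genes (x axis, points with 95% confidence intervals from limma, n = 2 arrays per genotype; y axis, genes by role). The intervals of all 34 genes include 0, and those of Acta1, Tnnt2 and Eya1 are the widest.

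The region before the start of a few of these genes is shown because the sites that myogenic and actin regulators recognise can be read there, next to the level of each gene. The sequences are the 160 bases before the annotated start, from RefSeq on the build GRCm38.p6, in the direction of transcription. Capitals mark the CArG box, the site of serum response factor, in the actin genes Acta1 and Actc1. They mark the E boxes in Myog, which encodes a bHLH factor, and in Chrna1 and Chrng, which encode subunits of the acetylcholine receptor. The windows are chr8:123894776-123894935 on the minus strand for Acta1, chr2:114052876-114053035 on the minus strand for Actc1, chr1:134289844-134290003 on the plus strand for Myog, chr2:73580339-73580498 on the minus strand for Chrna1 and chr1:87205651-87205810 on the plus strand for Chrng.
Acta1: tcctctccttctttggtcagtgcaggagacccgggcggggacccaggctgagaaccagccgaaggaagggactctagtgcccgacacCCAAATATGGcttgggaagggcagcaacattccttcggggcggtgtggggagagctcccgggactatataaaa
Actc1: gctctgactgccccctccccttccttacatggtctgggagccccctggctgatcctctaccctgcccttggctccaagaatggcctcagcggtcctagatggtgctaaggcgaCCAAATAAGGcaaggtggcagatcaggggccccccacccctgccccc
Myog: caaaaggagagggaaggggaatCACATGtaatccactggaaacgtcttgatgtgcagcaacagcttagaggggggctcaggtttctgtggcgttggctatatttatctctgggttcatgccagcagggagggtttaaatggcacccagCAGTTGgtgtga
Chrna1: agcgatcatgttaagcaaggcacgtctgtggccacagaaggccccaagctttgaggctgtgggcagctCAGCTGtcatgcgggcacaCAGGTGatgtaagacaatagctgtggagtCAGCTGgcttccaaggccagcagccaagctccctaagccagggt
Chrng: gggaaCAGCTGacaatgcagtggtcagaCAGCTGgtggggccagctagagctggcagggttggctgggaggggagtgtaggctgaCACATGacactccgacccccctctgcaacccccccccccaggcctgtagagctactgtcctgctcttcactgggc

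Motifs were searched in the 250 bases before each start, where RefSeq gave 32 windows for 26 of the 34 genes. The genes without a window were Myf6, Chrnd, Mymk, Neb, Tnnt3, Eya1, Pax3 and Myod1. All motifs read the same on both strands, so 1 search covers both. The general E box CANNTG was in 25 of the 32 windows (78.1%), against 66.2% of all 32851 windows of that length. The form CAGCTG, which is contained in the general E box, was in 11 of 32 windows (34.4%) against 13% of all. These windows belonged to 10 genes, which were Acta1, Chrna1, Chrng, Ckm, Musk, Mybph, Myl1, Mylpf, Tnni1 and Tnnt2. The CArG box, CCWWWWWWGG with W for A or T, was in 2 windows (6.25%) against 1.47% of all, those of Acta1 and Actc1. The Mef2 site was searched only as YTAWWWWTAR, with Y for C or T and R for A or G. That pattern was in 3 windows (9.38%) against 2.92%, those of Casq2, Myh8 and Ttn. Near matches were not counted, such as ctatatttat in the Myog sequence above, which departs from the pattern at its last letter. A gene without a match can thus still hold a Mef2 site. The actin genes with the CArG box were among the 7 genes above the 50th percentile. Of the 10 genes with CAGCTG, 8 were below it, the exceptions being Acta1 and Tnnt2. That is near the general share, as 20.6% of all 34 genes were above it. Acta1 has both motifs, and a link between motif and level was not tested. A match is a run of letters and does not show that a factor binds there, and genes with several windows are counted once per window.

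**Figure D3:**
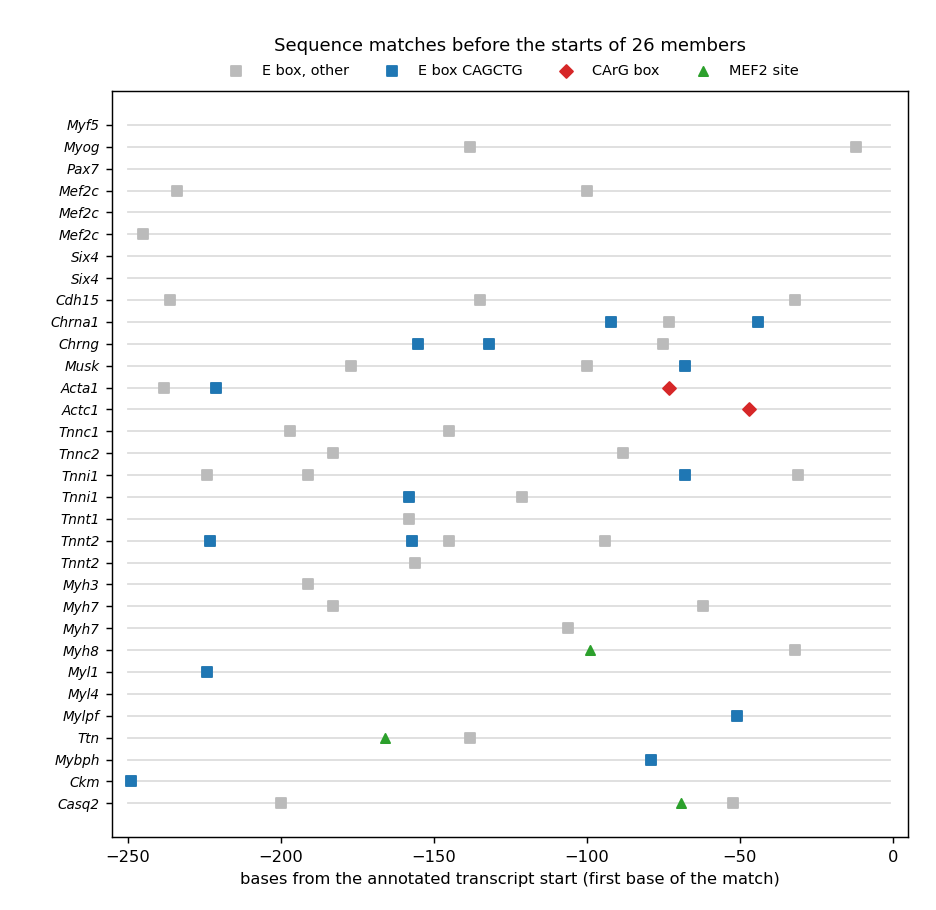
Position of each motif match in the 250 bases before the start of 26 muscle lineage genes (x axis, bases from the start; y axis, genes; colours, motifs). E boxes are found in 25 of 32 windows, while the CArG box is found in those of Acta1 and Actc1. Full matches to the Mef2 pattern are found in those of Casq2, Myh8 and Ttn, and near matches are not drawn.

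The 4 myogenic bHLH factors were dim. Myod1, the factor that can convert fibroblasts to muscle, read 212.7 and 229.3 in WT, with 188.3 and 208.3 in Pdpn KO, at percentiles 39.1 to 42.4. Its Pdpn KO values lay just under those of WT, with a log2 difference of -0.16 ± 0.12 and an unadjusted p of 0.232 in limma. Myf5, the earliest of the 4 in the embryo, read 77.3 and 74.9 in WT against 78.9 and 82.8 in Pdpn KO, no higher than percentile 17.5 on any array. Its groups did not overlap either, in the opposite direction, but the log2 difference was 0.09 ± 0.11. Myog, which drives terminal differentiation, read 147.8 and 169.5 in WT, with 130.2 and 176.0 in Pdpn KO, so that the WT values fell between those of Pdpn KO. Myf6, a factor of late differentiation, read 148.7 and 155.2 in WT against 140.8 and 166.6 in Pdpn KO and was ordered the same way. Myf5 and Myf6 are neighbouring genes on chromosome 10, and their mean percentiles were 16.5 and 32.4. The highest percentile of any of the 4 genes on any array was 42.4, that of Myod1.

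The 5 upstream factors and cofactors spanned a wider range, from percentile 33.5 to 67.9. Pax3, which marks migrating muscle progenitors and also neural crest, read 163.6 and 167.6 in WT, with 177.2 and 182.6 in Pdpn KO. The groups did not overlap, and the log2 difference was 0.12 ± 0.11. Pax7, the factor of satellite cells, the stem cells of muscle, read 197.1 and 228.2 in WT against 206.5 and 220.2 in Pdpn KO, with WT values on both sides of those of Pdpn KO. Six4 and Eya1 stood higher than the paired-box factors. Six4, a homeobox factor that works with Eya proteins, read 659.1 and 691.2 in WT, with 699.0 and 635.2 in Pdpn KO, at percentiles 64.8 to 67.3. Eya1, a transcriptional cofactor and phosphatase, read 760.4 and 494.3 in WT against 740.1 and 544.2 in Pdpn KO. In Eya1 replicate 1 exceeded replicate 2 in both genotypes, 1.54-fold in WT and 1.36-fold in Pdpn KO, whereas the genotypes differed by 0.05 ± 0.24 on the log2 scale. Mef2c, a MADS-box factor of muscle, heart and other mesoderm, read 342.4 and 284.4 in WT, with 355.6 and 325.1 in Pdpn KO, a log2 difference of 0.12 ± 0.14. Six4, Eya1 and Mef2c also act outside muscle, in tissues such as kidney, ear and heart.

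Adhesion and fusion were represented by a pair of genes. Cdh15, which encodes M-cadherin, the cadherin of myoblasts and satellite cells, read 192.7 and 207.3 in WT against 193.7 and 178.8 in Pdpn KO. The groups overlapped, and the log2 difference was -0.10 ± 0.12. Mymk, which encodes the membrane protein myomaker needed for myoblast fusion and is listed under its older name Tmem8c in the probe set description, read 259.5 and 310.9 in WT, with 259.4 and 296.7 in Pdpn KO. In Mymk the values followed the replicate number and hardly the genotype, with a log2 difference of -0.03 ± 0.14.

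The nerve-muscle synapse was represented by 3 subunits of the acetylcholine receptor and by the kinase that clusters it. Chrna1 encodes the alpha subunit, which binds acetylcholine, and was the brightest of the 4 at percentiles 41.5 to 47.6. It read 269.7 and 232.5 in WT against 257.4 and 217.1 in Pdpn KO, with replicate 1 above replicate 2 in each genotype. Chrng, the gamma subunit of the fetal receptor, read 182.9 and 214.3 in WT, with 183.3 and 197.5 in Pdpn KO. Its neighbour on chromosome 1, Chrnd, the delta subunit, read 107.6 and 123.7 in WT against 111.7 and 127.8 in Pdpn KO. In Chrng and Chrnd replicate 2 was above replicate 1, the opposite of Chrna1. Musk, the receptor tyrosine kinase that organises the synapse, was dimmest, at 83.6 and 92.4 in WT, with 83.2 and 92.3 in Pdpn KO. The genotypes overlapped in all 4 genes, and the log2 differences ran from -0.08 to 0.05 with unadjusted p of 0.577 or more in limma.

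Of the 9 thin filament genes, Acta1, Actc1 and Tnnt2 averaged above the 50th percentile. Acta1 encodes skeletal alpha-actin and read 8240 and 5557 in WT against 5925 and 4353 in Pdpn KO, at percentiles 96.2 to 99.1. Pdpn KO replicate 1 lay between the WT arrays, so the groups overlapped. The log2 difference was -0.41 ± 0.23 with a 95% interval of -0.97 to 0.14 and an unadjusted p of 0.118 in limma. Between arrays of the same replicate number Pdpn KO was the lower in both. With the replicate number as a block, limma gave an unadjusted p of 0.00191 and an adjusted p of 0.186, but the number is not shown to pair the samples. The log2 difference ran from -0.70 without WT replicate 2 to -0.13 without WT replicate 1. Replicate 1 exceeded replicate 2 by 1.48-fold in WT and 1.36-fold in Pdpn KO, and the genotypes differed by 1.33-fold. Alpha-actins share most of their coding sequence, and the probes' positions were not used here, so part of the signal could come from Acta2, smooth muscle alpha-actin. Acta2 read 15638 and 16691 in WT, with 15374 and 16256 in Pdpn KO. Its replicate 2 was above replicate 1, the reverse of Acta1, by a log2 difference of 0.09 in WT and 0.08 in Pdpn KO. Whether Acta2 adds to the Acta1 signal was not tested. Acta1 alone made up a large part of the summed intensity of the 34 genes. The sum was 16251 and 13915 in WT against 13768 and 12689 in Pdpn KO, and without Acta1 it was 8011 and 8358 in WT, with 7843 and 8336 in Pdpn KO.

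Actc1 encodes cardiac alpha-actin, the main sarcomeric actin of the embryonic heart and of early skeletal muscle. It read 599.3 and 754.4 in WT against 531.5 and 652.9 in Pdpn KO, a log2 difference of -0.19 ± 0.16 with overlapping groups. Here replicate 2 was the higher in both genotypes, again unlike Acta1. Tnnt2, the cardiac troponin T that embryonic skeletal muscle also makes, read 709.2 and 761.5 in WT, with 526.6 and 925.4 in Pdpn KO. Both WT values lay between those of Pdpn KO, and the SD of the log2 values was 0.57 in Pdpn KO against 0.07 in WT. The log2 difference was -0.07 ± 0.25, and it went from -0.48 without Pdpn KO replicate 2 to 0.33 without Pdpn KO replicate 1. The direction for Tnnt2 thus depended on which Pdpn KO array was left out.

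The other troponin genes and nebulin were lower. The troponin C genes, whose products bind calcium, lay at percentiles 48.5 to 50.01 for the slow and cardiac form Tnnc1 and 39.8 to 44.8 for the fast form Tnnc2. Tnnc1 read 303.9 and 289.9 in WT against 316.7 and 295.4 in Pdpn KO, and Tnnc2 read 217.6 and 242.8 in WT, with 192.6 and 249.1 in Pdpn KO. Tnni1, the slow troponin I, which holds the filament off when calcium is low, read 191.8 and 214.5 in WT against 216.5 and 223.1 in Pdpn KO. It was the only thin filament gene without overlap, with WT replicate 2 just under Pdpn KO replicate 1, and its log2 difference was 0.12 ± 0.12. The skeletal troponin T genes bind the complex to tropomyosin. The slow form Tnnt1 read 122.6 and 147.5 in WT, with 132.4 and 156.5 in Pdpn KO, and the fast form Tnnt3 read 275.7 and 357.0 in WT against 268.5 and 309.0 in Pdpn KO. Neb, the giant protein nebulin that runs along the thin filament, read 118.2 and 122.2 in WT, with 111.8 and 122.3 in Pdpn KO. In Tnnt1, Tnnt3 and Neb replicate 2 was above replicate 1 in both genotypes.

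The 8 thick filament and titin genes had a median of mean percentiles of 28.5. Myosin heavy chains, the motors of the filament, were dim in the 3 forms among the 34. Myh3, the embryonic form, read 73.3 and 85.3 in WT against 80.2 and 86.5 in Pdpn KO, and Myh8, the perinatal form, read 149.4 and 141.7 in WT, with 146.1 and 141.7 in Pdpn KO. Both belong to a cluster on chromosome 11 with the adult forms Myh2, Myh1 and Myh4 between them; these share much sequence, so signal between them is uncertain. Myh7, the slow and cardiac form, read 162.8 and 186.7 in WT against 160.7 and 178.3 in Pdpn KO. Among the light chains, Myl1, the alkali light chain of fast fibres, was the dimmest of all 34 genes, at 57.0 and 57.0 in WT, with 43.0 and 51.3 in Pdpn KO. Its groups did not overlap, and the log2 difference was -0.28 ± 0.13 with a 95% interval of -0.59 to 0.03. Without 1 array it ran from -0.41 to -0.15. At percentiles 8.57 to 11.9, Myl1 lay in the range where RMA values are compressed.

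Myl4, the alkali light chain of the atrium and of embryonic muscle, was the exception among the thick filament genes, at percentiles 57.8 to 59.99. It read 506.7 and 478.2 in WT against 541.8 and 451.9 in Pdpn KO, with WT between the Pdpn KO values. Mylpf, the phosphorylatable light chain of fast fibres, read 106.2 and 116.1 in WT, with 103.4 and 118.4 in Pdpn KO. Ttn, the giant spring titin that spans from the Z disc to the M line, read 110.4 and 130.9 in WT against 114.4 and 127.2 in Pdpn KO. Mybph, myosin binding protein H, read 213.8 and 252.4 in WT, with 229.6 and 246.2 in Pdpn KO. The description of its probe set also names Adora1, the gene that lies between Mybph and Myog on chromosome 1, so the Mybph and Adora1 signals cannot be told apart. The log2 differences of these 4 genes lay between -0.01 and 0.03.

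The remaining pair serve energy supply and calcium storage. Ckm, the muscle creatine kinase that regenerates ATP, read 213.6 and 257.6 in WT against 242.8 and 271.1 in Pdpn KO. Its log2 difference of 0.13 ± 0.14 was the highest of the 34, and the groups overlapped. Casq2, calsequestrin 2, which binds calcium in the sarcoplasmic reticulum of heart and slow muscle, read 74.4 and 86.3 in WT, with 79.2 and 78.4 in Pdpn KO, at percentiles 15.9 to 17.6. In Casq2 the Pdpn KO values were nearly equal and lay between those of WT.

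The muscle lineage genes were also compared between the replicate numbers. Replicate 2 was above replicate 1 in both genotypes in 22 of the 34 genes (64.7%), against 41.3% of all genes, and below in 7 (20.6%), against 32.4% of all genes. The median of replicate 2 minus replicate 1 over the 34 genes was 0.14 in WT and 0.12 in Pdpn KO on the log2 scale, against 0.02 and 0.03 over all genes. The labels do not say what a replicate number stands for. Dim probe sets in general moved the same way. Over all 24679 probe sets the lower quartile of the intensities was 103.7 and 103.4 in replicates 1 of WT and Pdpn KO. It was 114.3 and 110.8 in replicates 2 of WT and Pdpn KO. Among the dimmer 50% of all genes, replicate 2 was above replicate 1 in both genotypes in 63.3%, and among the 27 muscle lineage genes that lie there in 20, or 74.1%. Among the 7 in the brighter 50%, replicate 2 was above in 2 and below in 4, where the brighter 50% of all genes had 19.4% above and 51.0% below. When percentiles were compared in place of intensities, the count was 15 above and 9 below, with 35.5% of all genes above. Eya1, Acta1 and Chrna1 were among those with replicate 1 the higher, and Actc1, Tnnt3, Myog and Tnnt2 among those with replicate 2 the higher.

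**Figure D4:**
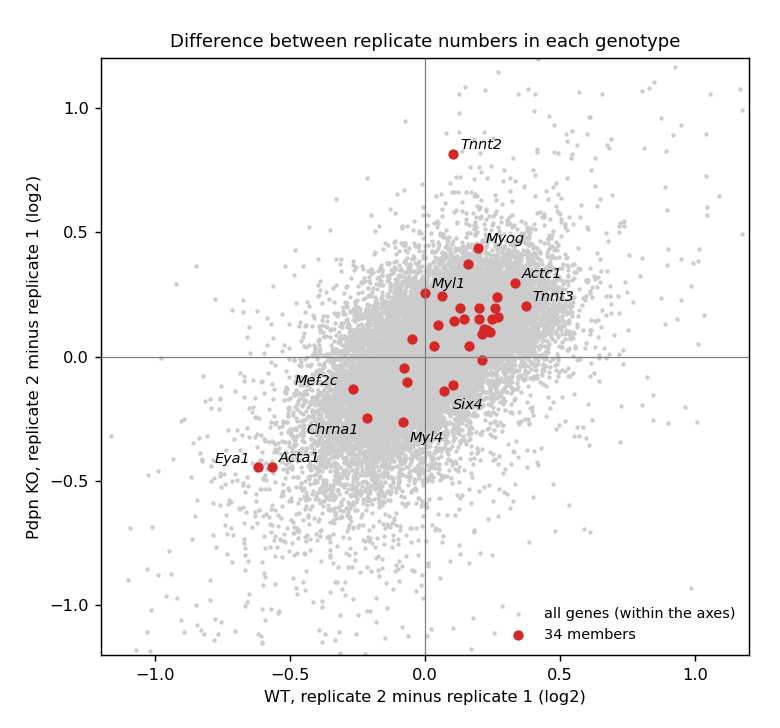
Log2 difference between replicate 2 and replicate 1 in WT (x axis) and in Pdpn KO (y axis), with the 34 muscle lineage genes in red and all other genes within the axes in grey. Of the 34 genes, 22 lie in the upper right area and 7 in the lower left, and Tnnt2 stands out by its difference in Pdpn KO.

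Lists of related genes outside the 34 were read in the same fit, and 0 of their genes passed an adjusted p under 0.05 in limma. Of 41 other sarcomere genes measured, 0 passed an unadjusted p under 0.05, the median log2 difference was -0.02 and the median percentile 35.6. The 5 with a mean above the 75th percentile were the tropomyosins Tpm1, Tpm2 and Tpm3, which coil along actin, the chaperone Cryab and the actin crosslinker Flnc, all of which non-muscle cells can also express. Tpm1 lay at percentiles 99.6 to 99.7 and Tpm3 at 99.4 to 99.5. The smallest p-values of the list belonged to Cryab, with a log2 difference of 0.23 ± 0.12, and the myosin light chain gene Myl6b, with 0.26 ± 0.17. Of 18 genes of excitation-contraction coupling, 8 other genes of the nerve-muscle synapse and 10 genes of muscle energy metabolism, 0 passed an unadjusted p under 0.05, with median percentiles of 35.9, 41.6 and 37.0. The brightest of these were Dysf, the membrane repair protein dysferlin, at percentiles 75.9 to 81.2, and Eno3, the muscle enolase, at 84.1 to 90.5. Next in brightness within their lists were Jph2, a junctional membrane protein, at 62.9 to 64.9, Agrn, the nerve-derived organiser agrin, at 62.9 to 64.8, Chrnb1, the beta subunit of the acetylcholine receptor, at 54.7 to 67.4, and Pfkm, the muscle phosphofructokinase, at 72.9 to 75.5. The smallest p-values of these 3 lists belonged to Dysf, with a log2 difference of -0.23 ± 0.12, the calcium channel subunit Cacnb1 (0.20 ± 0.13), Chrnb1 (-0.32 ± 0.28), the acetylcholinesterase gene Ache (0.09 ± 0.13), Eno3 (-0.23 ± 0.20) and the AMP deaminase gene Ampd1 (-0.14 ± 0.11).

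The 26 premyogenic factors and signals had a median percentile of 56.8, and the brightest were Igf2, a fetal growth factor, at percentiles 99.1 to 99.7, and Id2, an inhibitor of bHLH factors, at 97.4 to 98.3. In this list 2 of the 26 genes had an unadjusted p under 0.05, against 2.01% of all genes, and 0 passed the adjusted test. Six2, a homeobox factor of mesenchyme, read 364 and 403 in WT against 570 and 492 in Pdpn KO, a log2 difference of 0.47 ± 0.13 (limma unadjusted p = 0.0102, adjusted p = 0.99998). Meox2, a homeobox factor of somite and limb muscle precursors, read 115 and 162 in WT, with 172 and 271 in Pdpn KO, a log2 difference of 0.66 ± 0.25. Among 19 surface genes of myoblasts and satellite cells the median percentile was 58.4, led by the adhesion molecule Ncam1 at 96.9 to 97.3 and the syndecan Sdc4 at 91.4 to 96.4. In that list 1 of the 19 genes, the engulfment receptor Megf10, had an unadjusted p under 0.05, against 2.01% of all genes. It read 772 and 516 in WT against 455 and 435 in Pdpn KO, a log2 difference of -0.51 ± 0.20 (limma adjusted p = 0.99998). The next smallest p was that of Boc, a receptor of the cell surface, with a log2 difference of 0.32 ± 0.14. Ncam1, Igf2 and Id2 are active in many embryonic cells.

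**Figure D5:**
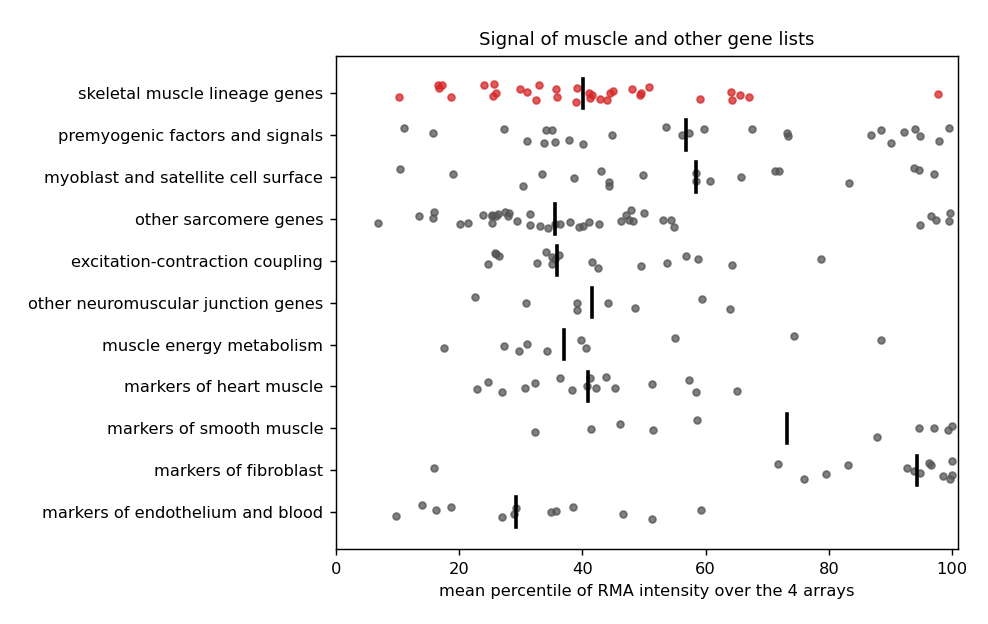
Mean percentile over the 4 arrays of each gene in the muscle lineage groups, the related gene lists and the markers of other cell types (x axis, percentile among all 19751 genes; y axis, lists; 1 point per gene). Fibroblast markers crowd near the top with a median of 94.3, while the other sarcomere genes have a median of 35.6 and the endothelial and blood markers of 29.2.

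Several of the 34 genes are shared with other muscle types, so markers of those were read beside them. The heart list had 16 genes with a median percentile of 40.9, and 4 of them exceeded the 50th. The brightest were the transcription factors Gata6, at percentiles 62.0 to 70.4, and Nkx2-5, at 56.2 to 61.8. Of genes more restricted to heart muscle, Myh6, the atrial myosin heavy chain, lay at percentiles 30.7 to 33.2 and Myl7, the atrial light chain, at 38.5 to 42.7. Nppa, the atrial natriuretic peptide, lay at 37.4 to 38.8, Tnni3, the cardiac troponin I, at 34.2 to 38.5 and Mybpc3, the cardiac myosin binding protein C, at 43.1 to 45.3. The summed intensity of the heart list was 3978 and 3998 in WT, with 4232 and 4195 in Pdpn KO. Tbx5, a T-box factor of heart and forelimb, read 287 and 313 in WT against 786 and 555 in Pdpn KO, a log2 difference of 1.14 ± 0.18 (limma unadjusted p = 0.000593, adjusted p = 0.570). Nppb, the B-type natriuretic peptide, read 308 and 250 in WT against 202 and 158 in Pdpn KO, from percentile 50.2 in WT replicate 1 down to 32.6, and had a log2 difference of -0.63 ± 0.17 (limma unadjusted p = 0.00827, adjusted p = 0.99998). The smooth muscle list had 10 genes with a median percentile of 73.2, and 5 exceeded the 75th. Its summed intensity was 35034 and 41266 in WT, with 35490 and 40286 in Pdpn KO, so replicate 2 was the higher in each genotype, as in Actc1 and Tnnt2 and unlike Acta1. Cnn1, the actin-binding calponin, lay at percentiles 95.1 to 98.0, and Myh11, the smooth muscle myosin heavy chain, at 48.9 to 57.4. Tagln, which encodes an actin-bundling protein, lay at percentiles 99.3 to 99.5, and Acta2 and Tagln are also made by cultured fibroblasts. Their part in the levels of Acta1, Actc1 and Tnnt2 was not tested. Of the 13 markers of endothelium and blood the median percentile was 29.2. The brightest were Cd68, a gene of macrophages, at percentiles 54.4 to 64.5, and Kdr, a VEGF receptor of endothelium, at 45.7 to 58.1. Pecam1, which encodes the depleted CD31, lay at 27.2 to 31.0, Ptprc, which encodes CD45, at 16.0 to 20.0, and Tek, the angiopoietin receptor, at 21.9 to 29.2. Emcn, an endothelial sialomucin, had the only unadjusted p under 0.05 of the 13, against 2.01% of all genes. It read 459 and 351 in WT against 196 and 177 in Pdpn KO, a log2 difference of -1.11 ± 0.16 (limma unadjusted p = 0.000333, adjusted p = 0.570). The summed intensity of these markers was 2680 and 2228 in WT against 2414 and 2144 in Pdpn KO.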

How the data were processed

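The authors deposited RMA intensity (linear, 1 value a probe set and array; RMA is named in the submitters' processing notes, its version and settings not). Of 24679 probe sets, 21354 had 1 gene symbol in the platform annotation; where a symbol had several, the brightest was kept, which gave 19751 genes. The identifiers of all 34 muscle genes matched RefSeq, and promoter sequences are RefSeq's on GRCm38.p6. Log2 was taken without a pseudocount or filter. Pdpn KO was compared with WT in limma 3.58.1 under R 4.3.3 (lmFit and eBayes, two-sided, adjusted over all genes by Benjamini-Hochberg). The code was tried on simulated data with independent arrays. That does not test the fit for arrays that deviate together by replicate number, as these did. The labels do not say what separates the replicates, so p-values measure only the spread among these arrays, which may be technical, and the 4 arrays limit the precision; an exact permutation test of 2 against 2 cannot go below 0.333. The members, lists and alternatives were chosen with earlier results of these data known. The text names all 34 genes, Pdpn, and from other lists the brightest 2 and the 2 with the smallest p. Decr1, Tpm2, Flnc, Cd3e, Ptprc, Pecam1, Myh6, Myl7, Nppa, Tnni3 and Mybpc3 were added afterwards.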

Additional observations from a re-analysis of the deposited data

How the results depend on the processing

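In 0 of 409 fits of single muscle genes under the alternatives tried did a gene pass the adjusted threshold, and the smallest adjusted p was 0.186. Leaving out the dimmer 25% or 50% of genes left 28 and 7 of the 34 to test. The number of all genes called was 2, against 1 without the dimmer 50%, 9 (6 higher, 3 lower) with a robust prior that depends on intensity and 0 when each gene was tested alone (613 at an unadjusted p under 0.05). It was 34 with the replicate number as a block (27 higher, 7 lower), none of them a muscle gene. At an unadjusted p under 0.05 the block called 3 of the 34 (8.82%), Acta1 (0.00191), Myl1 (0.0226) and Actc1 (0.0484) in limma, against 1676 of all genes (8.49%); same-numbered arrays deviated together (correlation 0.581), but with 2 pairs the number is not shown to pair the samples. Leaving out WT replicate 1 gave 5 and WT replicate 2 gave 53, and leaving out Pdpn KO replicate 1 gave 100 and its replicate 2 gave 50; the lone array is then assumed to vary like the others. The cause was not tested. The median log2 difference of the 34 ran from -0.07 to 0.06 in these fits. Median centring turned the sign of Myf6 to -0.0183, Pax7 to -0.0222, Myl4 to -0.0224 and Ttn to -0.0252. Quantile normalisation turned Musk to 0.0197, Myl4 to -0.0338, Mylpf to 0.0150 and Casq2 to 0.0050. Without 1 array the sign held in 8 genes (Myod1, Myf5, Pax3, Cdh15, Acta1, Actc1, Tnni1 and Myl1) and turned in 26, whose log2 differences ran over these ranges: Myf6 -0.11 to 0.13, Myog -0.28 to 0.15, Pax7 -0.0978 to 0.11, Mef2c -0.0099 to 0.26, Six4 -0.0875 to 0.0506, Eya1 -0.26 to 0.36, Mymk -0.16 to 0.0965, Chrna1 -0.21 to 0.0399, Chrnd -0.0498 to 0.15, Chrng -0.17 to 0.0572, Musk -0.0794 to 0.0717, Tnnc1 -0.0068 to 0.0935, Tnnc2 -0.25 to 0.12, Tnnt1 -0.0348 to 0.23, Tnnt2 -0.48 to 0.33, Tnnt3 -0.31 to 0.063, Neb -0.10 to 0.025, Myh3 -0.0342 to 0.18, Myh7 -0.14 to 0.0564, Myh8 -0.0547 to 0.0221, Myl4 -0.12 to 0.14, Mylpf -0.10 to 0.093, Ttn -0.12 to 0.13, Mybph -0.0864 to 0.15, Ckm -0.0058 to 0.26, Casq2 -0.13 to 0.0823.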
